A study of Mus musculus with 36 samples.

Results

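The genes described here serve glucose uptake, glycolysis and lactate exchange, and many of them are members of isoform pairs whose balance differs between dividing cells, neurons and photoreceptors. They are Slc2a1, Hk1, Hk2, Pfkfb2, Aldoc, Eno2, Pkm, Ldha, Ldhb and Slc16a1, taken by symbol, and all 10 were found among the 15289 genes of the table. RNA sequencing had been done on mouse cells of the strain Nrl-GFP, in which a green fluorescent protein reports the promoter of Nrl, the transcription factor of rod identity. Cells reprogrammed with a chemical mix to photoreceptor-like cells (CiPC, day 11, n = 3) were set against intermediates of the same treatment at day 8 (n = 3) and day 5 (n = 3) and against the untreated mouse embryonic fibroblasts at passage 2 (MEF, n = 3). The medium also differed between these groups, since fibroblasts grew in IMR90 medium and the treated cells in photoreceptor induction medium. Rods isolated from Nrl-GFP retinas at postnatal day 2 (P2, n = 2), P4 (n = 2), P5 (n = 3), P6 (n = 3), P10 (n = 4), P14 (n = 3) and P28 (n = 4) formed the other groups. The labels give sorting by the reporter for every sample, without the gate, so the groups may be defined in part by it. The P5 rods belonged with the cultured cells. Rods of the other ages came from an earlier series and are called reused below. The labels list no older sample for P10 replicate 3 and P14 replicate 3, so reuse is not shown for these.

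Glycolysis starts with glucose entry through a carrier and its trapping by a hexokinase, and it ends with pyruvate kinase, after which lactate dehydrogenase can turn pyruvate into lactate. Lactate crosses the plasma membrane through proton-coupled monocarboxylate transporters. Photoreceptors are known for aerobic glycolysis, the release of much of their glucose carbon as lactate while oxygen is present, and rods are known to carry hexokinase 2 and the A form of lactate dehydrogenase.

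Levels are the authors' normalized CPM (read counts scaled by library), which are not whole numbers and do not show the sequencing depth. Column sums ran from 719752 to 2277240 and were highest at P28, and mitochondrially encoded genes took 1.96% to 19.1% of a library. P10 replicate 4 and P14 replicate 3 stood apart, with 3.87% and 3.95% mitochondrial CPM against at least 11.8% and 7.92% in the other libraries of their ages. Rod markers summed to 449.5 to 451 CPM in CiPC, to 9575 to 9779.8 CPM in P5 rods, to 94191 to 119235 CPM in P28 rods and to 3.16 to 4.68 CPM in MEF. Fibroblast markers summed to 192 to 219.8 CPM in CiPC, to 2.14 to 5.22 CPM in P28 rods and to 11053 to 12556 CPM in MEF. Reads from a bulk sample do not separate fewer cells of a type from less RNA per cell. Nothing in the labels says whether replicates came from separate cultures or animals, and p-values therefore reflect only how these libraries vary, which may be technical. Levels are compared within a gene and never between genes, because CPM is not corrected for transcript length.

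Between the highest and the lowest group mean, Hk2 spanned 336-fold and Hk1 65.2-fold. Aldoc spanned 668-fold, but its lowest mean, 0.620 CPM in MEF, lay below the 1 CPM filter, so its place against Hk2 is uncertain. Slc16a1 spanned 48.6-fold and Pfkfb2 32.8-fold. The range was 15.3-fold for Eno2, 12.9-fold for Pkm, 11.4-fold for Slc2a1, 8.74-fold for Ldhb and 7.59-fold for Ldha. In the values as deposited, the highest mean was in P28 rods for 8 of the 10 genes. The exceptions were Pfkfb2, whose P14 and P28 libraries overlapped, and Ldhb, which was highest in day 8 cells. For Slc2a1, Eno2 and Ldha, P28 libraries also overlapped those of the group with the next highest mean. Column sums were highest at P28 too, and the order of means under other scalings was not examined.

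**Figure D1:**
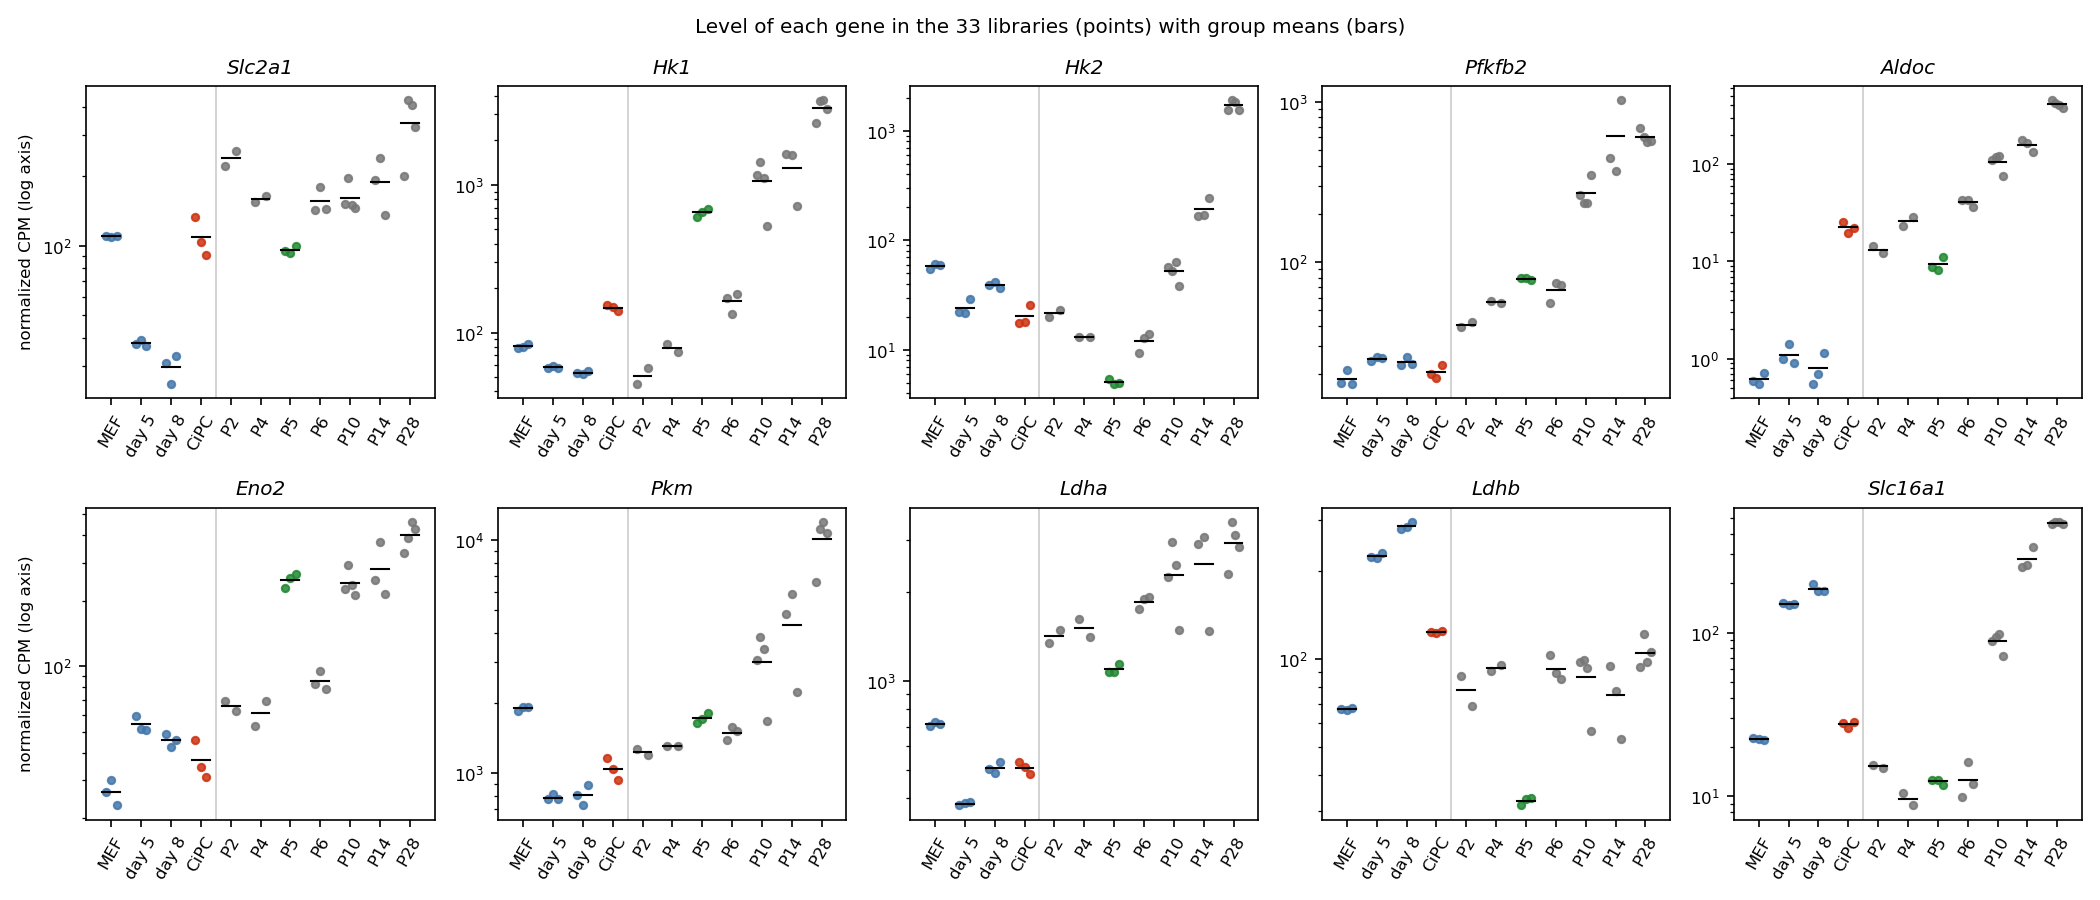
Level of each gene in normalized CPM (log axis) in every library (points) with the group mean (bars), for the cultured cells on the left of the grey line and the rods on the right. CiPC are red, P5 rods green, other cultured cells blue and the reused rods grey. In the values as deposited, the highest mean was at P28 for 8 of the 10 genes, while Ldhb peaked in day 8 cells.

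The hexokinases, which trap glucose as glucose 6-phosphate, rose most with rod age. Hk2 (ENSMUSG00000000628.10, chromosome 6, 82725025 to 82774454, minus strand), the inducible hexokinase, was at 20.1 and 23.3 CPM at P2, 12.9 and 13.1 at P4 and 9.42, 12.7 and 13.8 at P6. It was at 57.0, 52.0, 62.8 and 38.4 CPM at P10, 168, 169 and 243 at P14 and 1559.9, 1906, 1848 and 1560.4 at P28. No P10 library overlapped a P6 library, and every P28 library was above every P14 library, which was in turn above every P10 library. In P28 rods Hk2 was 79.3-fold above its P2 mean, and most of that came after P10, when it stood at 2.43-fold. Hk1 (ENSMUSG00000037012.18, chromosome 10, 62268855 to 62379908, minus strand), the hexokinase typical of brain, was at 44.8 and 57.4 CPM at P2, 83.8 and 73.6 at P4 and 172, 134 and 181 at P6. It was at 1169, 1438, 1114 and 529 CPM at P10, 1625, 1582 and 715 at P14 and 2623, 3685, 3744 and 3282 at P28. The low values at P10 and P14 were those of P10 replicate 4 and P14 replicate 3, and P10 and P14 overlapped. Hk1 had already reached 20.8-fold of its P2 mean at P10 and stood at 65.2-fold at P28.

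Slc16a1 (ENSMUSG00000032902.1, chromosome 3, 104638668 to 104658462, plus strand) encodes MCT1, a carrier of lactate and pyruvate. It was at 15.4 and 14.9 CPM at P2, 10.4 and 8.78 at P4 and 9.82, 16.3 and 11.8 at P6, then at 89.3, 94.3, 98.3 and 71.6 CPM at P10, 252, 259 and 335 at P14 and 459.9, 472, 476 and 462 at P28. The P6 libraries overlapped those of P2 and P4, while P10, P14 and P28 did not overlap one another or any younger age. Aldoc (ENSMUSG00000017390.15, chromosome 11, 78322968 to 78327781, plus strand), the aldolase of neural tissue, was at 14.3 and 12.2 CPM at P2, 23.3 and 28.8 at P4 and 43.0, 42.6 and 36.6 at P6. At P10 it was at 109, 119, 122 and 74.9 CPM, at P14 at 176, 166 and 132 and at P28 at 453, 421, 404 and 381. No adjacent ages of Aldoc overlapped within the reused rods. Aldoc is also used as a marker of glia, and the Mueller glia markers summed to 169 to 408 CPM in P28 rods against 809 to 1110.2 in P10 rods. At P5, where Aldoc was at 8.78, 8.23 and 11.0 CPM, they summed to 219.9 to 243 CPM. The part of glia in the Aldoc values was not tested.

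Pfkfb2 (ENSMUSG00000026409.14, chromosome 1, 130689182 to 130729253, minus strand) makes and degrades fructose 2,6-bisphosphate, the activator of phosphofructokinase. Its mean was 40.8 ± 2.23 (SD, n = 2) at P2, 67.2 ± 10.2 (SD, n = 3) at P6, 270.0 ± 54.5 (SD, n = 4) at P10, 614 ± 357 (SD, n = 3) at P14 and 604 ± 56.7 (SD, n = 4) CPM at P28. The P14 spread came from replicate 3, at 1024 CPM against 447 and 371 in the others. The exons of Pfkfb2 overlap those of Yod1 on the other strand and of Gm29427 on the same strand. Yod1 reached 95.8 CPM at most and Gm29427 25.2 CPM. The strand of the kit is not given, so reads shared with Yod1 cannot be told apart, and strand would not separate those of Gm29427. Eno2 (ENSMUSG00000004267.16, chromosome 6, 124760053 to 124769673, minus strand), the enolase of neurons, averaged 65.7 ± 4.50 (SD, n = 2) at P2, 85.7 ± 8.17 (SD, n = 3) at P6, 242 ± 34.2 (SD, n = 4) at P10 and 403 ± 56.6 (SD, n = 4) CPM at P28. P28 overlapped P14, and P14 overlapped P10. Pkm (ENSMUSG00000032294.17, chromosome 9, 59656368 to 59679375, plus strand), pyruvate kinase of muscle and most other tissues, was at 1268 and 1203 CPM at P2, 1386, 1585 and 1514 at P6, 3075, 3827, 3419.8 and 1667 at P10 and 6615, 11139, 12016 and 10751 at P28. Its lowest P10 value was again replicate 4, and its M1 and M2 splice forms are summed in these gene-level values.

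Ldha (ENSMUSG00000063229.15, chromosome 7, 46841475 to 46855627, plus strand), the lactate dehydrogenase subunit linked with lactate production, averaged 1415 ± 101 (SD, n = 2) at P2, 1849 ± 92.7 (SD, n = 3) at P6, 2282 ± 611 (SD, n = 4) at P10 and 2919 ± 488 (SD, n = 4) CPM at P28. P6, P10, P14 and P28 libraries of Ldha overlapped from one age to the next. The mean of Ldhb (ENSMUSG00000030246.11, chromosome 6, 142490249 to 142507957, minus strand), the subunit typical of heart, stayed between 75.0 CPM at P14 and 105 CPM at P28 among the reused rods, and neighbours in the order of these means overlapped. Slc2a1 (ENSMUSG00000028645.11, chromosome 4, 119108711 to 119137983, plus strand), which encodes the glucose carrier GLUT1, averaged 239 ± 25.6 (SD, n = 2) CPM at P2, was at 143, 180.2 and 145 at P6 and averaged 161 ± 24.1 (SD, n = 4) at P10 and 339.8 ± 103 (SD, n = 4) CPM at P28. Its P2 values of 221 and 257 CPM were within the P28 range of 199 to 426. GENCODE M21 places all 10 genes on GRCm38 as protein-coding, and the coordinates given are from that annotation.

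Rod age was fitted in limma as a slope on the log2 of the day over the 18 reused libraries, P10 replicate 3 and P14 replicate 3 included. Changes with age, here and for other genes below, are those of the fitted line from P2 to P28 on the log2(CPM + 1) scale. They are not differences of the P2 and P28 means and can be larger or smaller. A gene was called where its Benjamini-Hochberg adjusted p was under 0.05 and its change at least 1, a fold of 2. Of the 10 genes, 8 rose with age and 0 fell, where 54% of 13884 tested genes were called in either direction. Among all tested genes, 2978 rose and 4520 fell. Their median change was 3.96, against -0.31 over all genes tested. Cell cycle markers fell in 6 of 6 genes, with sums of 1065 to 1155 CPM at P2 and 2.06 to 5.25 at P28, and rod markers summed to 5071 to 5393 CPM at P2 and 94191 to 119235 at P28. The part of these shifts in the members' slopes was not tested. Hk2 rose by 7.45 ± 0.90 (SE; adjusted p = 3.97e-07, limma), Hk1 by 6.67 ± 0.47 (adjusted p = 4.05e-10, limma) and Slc16a1 by 6.30 ± 0.66 (adjusted p = 5.53e-08, limma). Aldoc rose by 5.10 ± 0.20, Pfkfb2 by 4.58 ± 0.44, Pkm by 3.34 ± 0.42 and Eno2 by 3.13 ± 0.31. Ldha rose by 1.10 ± 0.28 as deposited, but it fell by 1.81 under quantile normalization and changed by -0.53 with equal column sums, where every library is scaled to the same total. It also lost its call without P28 (0.82) and with the slope on the day itself (0.91). Slc2a1 changed by 0.68 ± 0.34 (adjusted p = 0.0827, limma) and Ldhb by 0.23 ± 0.23 (adjusted p = 0.375, limma), and neither passed. Slc2a1 ranged from 0.445 to 1.01 with 1 library left out and was called, at 1.01, without P2 replicate 2, while Ldhb fell by 1.38 with equal column sums. Pkm changed by 0.17 under quantile normalization, which ended its call. Equal column sums moved the median of all genes by -1.21, so these settings differ in what counts as no change.

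**Figure D2:**
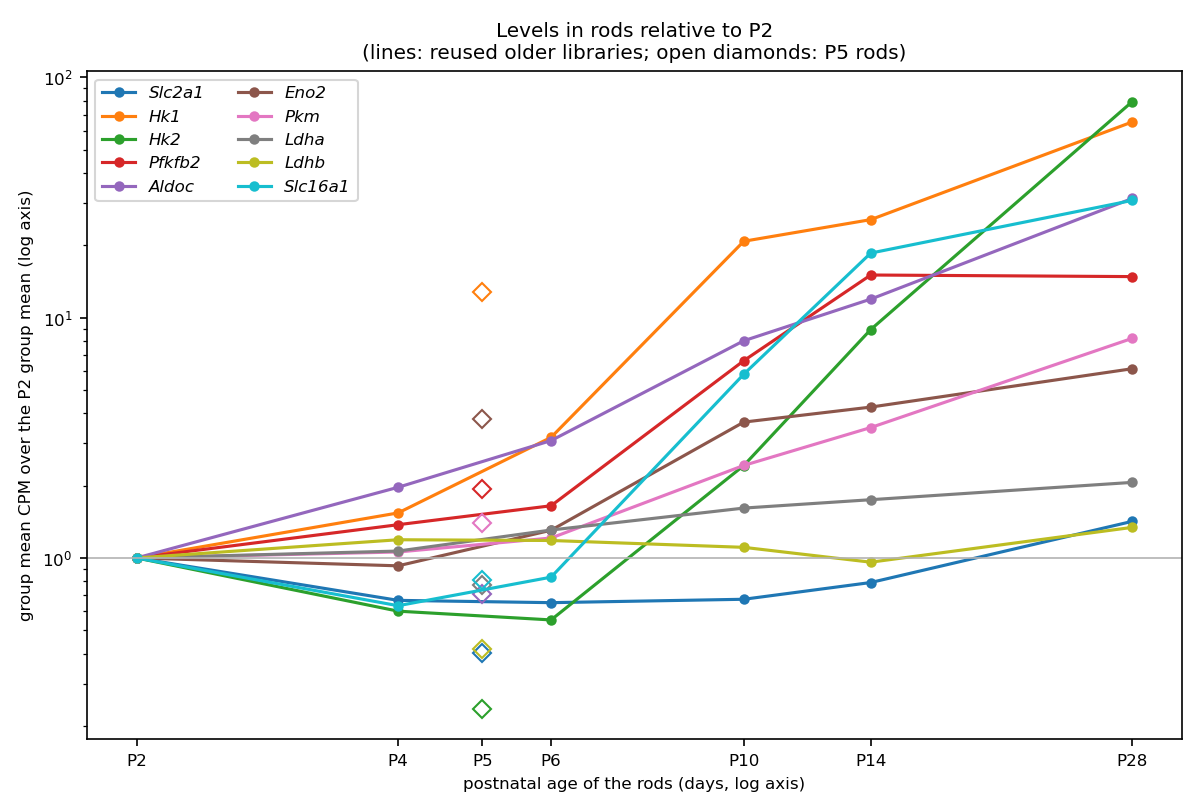
Group mean CPM of each gene in rods divided by its P2 mean (log axis) against postnatal age (log axis), with lines through the reused libraries and open diamonds for the P5 rods. Hk2 and Hk1 end highest, at 79.3-fold and 65.2-fold at P28, while Slc2a1 and Ldhb end at 1.42-fold and 1.34-fold, and the P5 diamond lies above the line for Hk1 and below it for Hk2.

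The steps from P6 to P10 and from P10 to P28 were also compared, and they share the P10 libraries. In P10 against P6 rods, 6 of the 10 genes were higher and 0 lower, where 16.1% of all tested genes were called. Slc16a1 was higher by 2.73 ± 0.20 (adjusted p = 2.70e-05, limma) and Hk1 by 2.63 ± 0.32 (adjusted p = 0.000377, limma). Hk2 was higher by 2.04 ± 0.21, Pfkfb2 by 1.98 ± 0.20, Eno2 by 1.48 ± 0.17 and Aldoc by 1.34 ± 0.20, though Aldoc lost its call with equal column sums, at 0.88. Pkm changed by 0.94 ± 0.34 (adjusted p = 0.0613, limma) and was called, at 1.20, without P10 replicate 4. In P28 against P10 rods, 7 were higher and 0 lower, where 30.4% of all tested genes were called, 977 of them higher and 2865 lower. Hk2 led with 5.02 ± 0.17 (adjusted p = 1.21e-07, limma), ahead of Slc16a1 with 2.40 ± 0.13 (adjusted p = 9.86e-07, limma) and Aldoc with 1.98 ± 0.17. Pkm was higher by 1.79 ± 0.33, Hk1 by 1.73 ± 0.30, Pfkfb2 by 1.18 ± 0.16 and Slc2a1 by 1.02 ± 0.23. Under both quantile normalization and equal column sums only Hk2, Slc16a1 and Aldoc kept their calls. Slc2a1 also lost its call, with values of 0.90 to 0.998, when P10 replicate 1, 3 or 4 or P28 replicate 2 or 3 was left out.

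The 3 genes with the largest fitted rise are shown with the 250 bases before their transcription start (RefSeq, GRCm38.p6, 5′ to 3′ on the gene's strand), because they had the largest slopes and factors of rods and of hypoxia have known short motifs. Their courses differed: Hk1 stood at 3.18-fold of its P2 mean at P6, Hk2 at 0.552-fold and Slc16a1 at 0.832-fold. Capitals mark the matches to the motifs named below them. All 3 are read from the first listed start of the gene, Hk2 at chr6:82774455-82774704, minus strand, Hk1 at chr10:62379909-62380158, minus strand and Slc16a1 at chr3:104638414-104638663, plus strand.
Hk2: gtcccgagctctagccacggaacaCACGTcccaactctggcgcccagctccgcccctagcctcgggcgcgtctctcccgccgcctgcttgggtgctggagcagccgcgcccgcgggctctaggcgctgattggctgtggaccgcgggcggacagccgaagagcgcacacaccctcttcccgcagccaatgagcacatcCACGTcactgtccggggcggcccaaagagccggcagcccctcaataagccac
Hk1: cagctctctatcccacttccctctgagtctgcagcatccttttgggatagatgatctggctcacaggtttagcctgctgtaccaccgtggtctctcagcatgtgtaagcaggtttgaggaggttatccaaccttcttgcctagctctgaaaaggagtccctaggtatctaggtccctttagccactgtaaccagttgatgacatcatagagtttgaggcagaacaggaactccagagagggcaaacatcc
Slc16a1: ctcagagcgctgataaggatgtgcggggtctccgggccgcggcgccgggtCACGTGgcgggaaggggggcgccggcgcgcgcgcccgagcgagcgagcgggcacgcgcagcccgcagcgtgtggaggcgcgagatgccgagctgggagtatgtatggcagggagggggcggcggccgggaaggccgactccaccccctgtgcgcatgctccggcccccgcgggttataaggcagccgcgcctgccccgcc

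Searched on both strands were TAATCC, bound by CRX, TGCTGAC, bound by NRL, AAGGTCA, bound by orphan nuclear receptors, the E-box CACGTG, and ACGTG, the core bound by hypoxia-inducible factors, which lies inside CACGTG. The window of Hk2 held 2 matches to ACGTG, both on the other strand and printed as their complement, and that of Slc16a1 held 1 E-box, which also holds ACGTG. The Hk1 window held 0 matches, and so did that of its second start. Across all 16 windows of the 10 genes, TAATCC was in 2, TGCTGAC in 2, AAGGTCA in 0, CACGTG in 3 and ACGTG in 7. By gene these were 2, 1, 0, 3 and 6 in the same order. Windows of 1 gene can share bases, as in Pfkfb2, so they are not independent. Among 32851 windows of the same length, the shares holding them were 6.25%, 3.81%, 4.08%, 6.02% and 16.6% in the same order. The first Ldha window, of a gene with a far smaller rise, held 2 E-boxes. A match describes these letters only, and its absence says nothing about a factor.

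Other glycolytic genes were counted in lists, beside the 54% called for the age slope over all tested genes. That share pools both directions, and more genes fell than rose. Of the other genes of the glycolytic steps, 10 of 16 rose with rod age and 1 fell, with a median of 2.40. Gapdh, which oxidizes glyceraldehyde 3-phosphate, averaged 10010.3 ± 1683 (SD, n = 4) CPM at P28 and 936 ± 101 (SD, n = 2) at P2 and rose by 3.94 ± 0.48. Pgam1, a phosphoglycerate mutase, rose by 3.75 ± 0.46. Aldoa rose by 4.22 ± 0.34, but its exons overlap Fam57b on the other strand, which reached 3664 CPM. The gene that fell was Hkdc1, which encodes a hexokinase-like protein, with 0.739 ± 0.479 (SD, n = 4) CPM at P28 and 75.4 ± 9.55 (SD, n = 2) at P2. Its fitted change was -6.51 ± 0.55 (adjusted p = 3.77e-09, limma).

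Among genes of monocarboxylate transport, 4 of 8 rose and 2 fell with rod age, and this count and those of the lists below stand beside the same 54% of all genes. Basigin (Bsg), the partner that carries MCT1 to the membrane, was at 1017 ± 150.3 (SD, n = 4) CPM at P28 and 166 ± 4.24 (SD, n = 2) at P2. Its fitted change was 2.85 ± 0.34. Embigin (Emb), another such partner, fell by 4.61 on the fitted line, with 0.192 ± 0.169 (SD, n = 4) CPM at P28 and 20.9 ± 0.141 (SD, n = 2) at P2. Of the pyruvate dehydrogenase list, 7 of 12 rose and 0 fell, among them Pdha1, the catalytic subunit, by 1.73 ± 0.14 and the kinase Pdk3 by 2.23 ± 0.25. Of the other control enzymes of fructose 2,6-bisphosphate, Pfkfb3, the form induced in many growing cells, fell by 2.72 on the fitted line, and Tigar rose by 2.91 ± 0.25. Pfkfb3 averaged 3.66 ± 1.13 (SD, n = 4) CPM at P28 and 20.5 ± 8.64 (SD, n = 2) at P2. Of the regulators of glycolytic genes, 5 of 13 rose and 5 fell. Nxnl1, which encodes rod-derived cone viability factor, a protein known to bind basigin on cones, was at 1468 ± 73.9 (SD, n = 4) CPM at P28 and 26.9 ± 6.18 (SD, n = 2) at P2 and rose by 6.11 ± 0.39. Txnip, an inhibitor of glucose uptake, fell by 6.16 on the fitted line, with 1.25 ± 1.13 (SD, n = 4) CPM at P28 and 71.6 ± 12.3 (SD, n = 2) at P2.

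The earliest step of the chemical treatment was read from day 5 cells against MEF. At day 5 the lactate carrier Slc16a1 was at 152, 146 and 149 CPM, against 22.7, 22.3 and 22.1 in MEF, and no library of one group overlapped the other. It was higher by 2.68 ± 0.04 (adjusted p = 1.96e-11, limma), 6.67-fold on the ratio of mean CPM. Ldhb was at 223, 222 and 231 CPM at day 5, against 67.5, 66.8 and 67.7 in MEF, higher by 1.73 ± 0.04 (adjusted p = 1.02e-10, limma). Eno2 was higher by 1.01 ± 0.10, close to the threshold, and lost its call, with 0.92 and 0.95, without MEF replicate 3 or day 5 replicate 1, and with a pseudocount of 5, at 0.92. In the other direction, Slc2a1 was at 37.4, 39.2 and 36.8 CPM at day 5 against 110.3, 109 and 110.0 in MEF, a change of -1.51 ± 0.04 (adjusted p = 9.85e-10, limma). Pkm was lower by 1.27 and Hk2 by 1.25 on the log2 scale, with 22.0, 21.5 and 28.9 CPM of Hk2 at day 5 against 55.2, 60.9 and 59.2 in MEF. Ldha changed by -0.89 ± 0.03, Hk1 by -0.47 ± 0.04 and Pfkfb2 by 0.41 ± 0.09, all short of the fold of 2. In all 3 genes were higher and 3 lower of 9 tested, where 28.4% of all tested genes were called, and Aldoc was below the filter, at 0.916 to 1.41 CPM at day 5 and 0.557 to 0.714 in MEF.

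Of the other glycolytic genes, 0 of 15 were higher at day 5 and 6 were lower than in MEF, where 28.4% of all tested genes were called, with a median change of -0.87 beside 0.01 over all genes. Eno1, the common enolase, was at 365 ± 5.03 (SD, n = 3) CPM at day 5 and 1231 ± 36.4 (SD, n = 3) in MEF, a change of -1.75 ± 0.03. Embigin stood at 355 ± 8.77 (SD, n = 3) CPM at day 5 and 22.6 ± 1.69 (SD, n = 3) in MEF, a change of 3.91 ± 0.06, in the same direction as Slc16a1. Pcx, pyruvate carboxylase, was higher by 2.95 ± 0.06, with 222 ± 9.90 (SD, n = 3) CPM at day 5 and 27.9 ± 2.46 (SD, n = 3) in MEF. Fibroblast markers summed to 40889.7 to 43057 CPM at day 5 and to 11053 to 12556 in MEF, macrophage markers to 5.45 to 6.34 and 181 to 207 CPM, and their part in these changes was not tested.

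Between day 8 and day 5 cells, 0 of 9 tested members were called in either direction, where 6.61% of all tested genes were called. limma gave an unadjusted p under 0.05 for 6 of them, all below the fold of 2. Hk2 was at 38.8, 41.7 and 36.8 CPM at day 8 against 22.0, 21.5 and 28.9 at day 5, a change of 0.68 ± 0.11. Ldha changed by 0.40 ± 0.05, Ldhb by 0.34 ± 0.05, Slc16a1 by 0.30 ± 0.05 and Slc2a1 by -0.34 ± 0.10. The genes around pyruvate moved more, with 6 of 13 genes of the pyruvate dehydrogenase list higher and 1 lower, beside 6.61% of all genes. Pdk4, a kinase that switches the complex off, was at 112 ± 7.78 (SD, n = 3) CPM at day 8 and 38.0 ± 1.86 (SD, n = 3) at day 5, and the subunit Pdhb was at 186 ± 15.5 (SD, n = 3) and 68.4 ± 2.80 (SD, n = 3) CPM. The subunits of the mitochondrial pyruvate carrier were higher as well, Mpc1 by 1.77 ± 0.06 and Mpc2 by 1.74 ± 0.08. Pfkfb3 was at 133 ± 4.45 (SD, n = 3) CPM at day 8 and 41.0 ± 0.982 (SD, n = 3) at day 5, a change of 1.67 ± 0.05, while Pfkfb2 changed by -0.07 ± 0.07.

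CiPC were compared with day 8 cells as the last step, and the lactate genes that were higher at day 5 were lower again. Slc16a1 was at 28.0, 26.1 and 28.3 CPM in CiPC, against 198, 178 and 178 at day 8, lower by 2.71 on the log2 scale (adjusted p = 2.98e-09, limma). Ldhb was at 123, 123 and 125 CPM in CiPC, against 278, 282 and 296 at day 8, a change of -1.20 ± 0.05 (adjusted p = 8.60e-08, limma), which was -0.91 and no longer called with equal column sums. Slc2a1 was at 133, 104 and 90.9 CPM in CiPC, against 31.1, 25.2 and 33.4 at day 8, higher by 1.83 ± 0.15 (adjusted p = 5.85e-06, limma). No library of CiPC overlapped one of day 8 for these 3 genes. Hk1 was higher by 1.44 ± 0.06 and Aldoc by 3.71 ± 0.15. Aldoc was at only 0.552, 0.702 and 1.15 CPM at day 8, so it passed the filter through the CiPC libraries and the size of its change is uncertain. In all 3 were higher and 2 lower of 10 tested, where 31.8% of all tested genes were called. Hk2 changed by -0.93 ± 0.14 and was called without CiPC replicate 3, at -1.10. Embigin fell beside Slc16a1, to 46.4 ± 3.71 (SD, n = 3) CPM in CiPC against 405 ± 27.8 (SD, n = 3) at day 8, and Pdk4 and Pcx fell by 6.25 and 3.89 on the log2 scale.

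Over the whole treatment, CiPC against MEF, 1 of the 10 genes was higher and 1 lower, where 33.7% of all tested genes were called. Aldoc was at 25.5, 19.6 and 22.1 CPM in CiPC, against 0.591, 0.557 and 0.714 in MEF, so that all 3 CiPC libraries lay far above MEF. Its change was 3.85 ± 0.12 on the log2(CPM + 1) scale and 36.1-fold on the ratio of means, whose denominator lay below 1 CPM. Aldoc, the gene counted as higher, passed the filter only through the CiPC libraries. Its p-value is therefore not given, and the size of its change is uncertain. Hk2 was at 17.5, 17.8 and 25.8 CPM in CiPC, against 55.2, 60.9 and 59.2 in MEF, lower by 1.50 on the log2 scale (adjusted p = 9.27e-06, limma), with no overlap. Hk1 was at 153, 149 and 139 CPM in CiPC, against 78.9, 80.1 and 83.1 in MEF, and Ldhb at 123, 123 and 125 against 67.5, 66.8 and 67.7 CPM. Both stood apart from MEF in every library but changed by 0.86 ± 0.06 and 0.87 ± 0.05, under the fold of 2, and both were called with quantile normalization (1.03 and 1.01) and with equal column sums (1.18 and 1.19). Pkm changed by -0.87 ± 0.07, Ldha by -0.49 ± 0.05, Eno2 by 0.46 ± 0.15, Slc16a1 by 0.28 ± 0.07, Pfkfb2 by 0.13 ± 0.11 and Slc2a1 by -0.03 ± 0.12. The Mueller glia markers, whose cells also carry Aldoc, summed to 5114 to 5405 CPM in CiPC and to 2951 to 3029 in MEF, and 7 and 5 of the 8 reached 1 CPM. Of the 7 tested, 5 were higher in CiPC and 0 lower, beside the 33.7% of all genes, with a median change of 3.40. Cell cycle markers summed to 1022 to 1152 and 277 to 288 CPM, and the part of these cells in the changes was not tested.

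Among other genes of glycolysis, 4 of 17 were higher in CiPC and 1 lower, a share no larger than the 33.7% of all tested genes. Hkdc1 stood at 198 ± 21.1 (SD, n = 3) CPM in CiPC and 0.210 ± 0.271 (SD, n = 3) in MEF, a change of 7.38 ± 0.16. Hkdc1 too passed the filter only through the CiPC libraries, so no p-value is given. Among rods it was at 75.4 ± 9.55 (SD, n = 2) at P2, 7.49 ± 0.470 (SD, n = 3) at P5 and 0.739 ± 0.479 (SD, n = 4) CPM at P28, so the CiPC level lay above that of every rod group named here. Eno1 was at 3485 ± 339.9 (SD, n = 3) CPM in CiPC and 1231 ± 36.4 (SD, n = 3) in MEF, a change of 1.50 ± 0.07, and remains uncertain because the near-identical copy Eno1b, added after its values were seen, was at 0.511 ± 0.624 CPM in CiPC and 348 ± 8.70 in MEF (SD, n = 3 each). The summed level of both was 3486 ± 340.5 (SD, n = 3) CPM in CiPC and 1579 ± 44.3 (SD, n = 3) in MEF. Of monocarboxylate transport genes 4 of 8 were higher and 3 lower beside that share, with Slc16a6 at 36.0 ± 5.00 (SD, n = 3) CPM in CiPC and 8.49 ± 1.95 (SD, n = 3) in MEF and the lactate exporter Slc16a3 at 5.46 ± 1.15 (SD, n = 3) and 15.9 ± 2.33 (SD, n = 3) CPM. Of the hypoxia response list 0 of 15 were higher and 5 lower, near the 33.7% of all genes, and P4ha2, a collagen prolyl hydroxylase, changed by -2.33 ± 0.07.

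**Figure D3:**
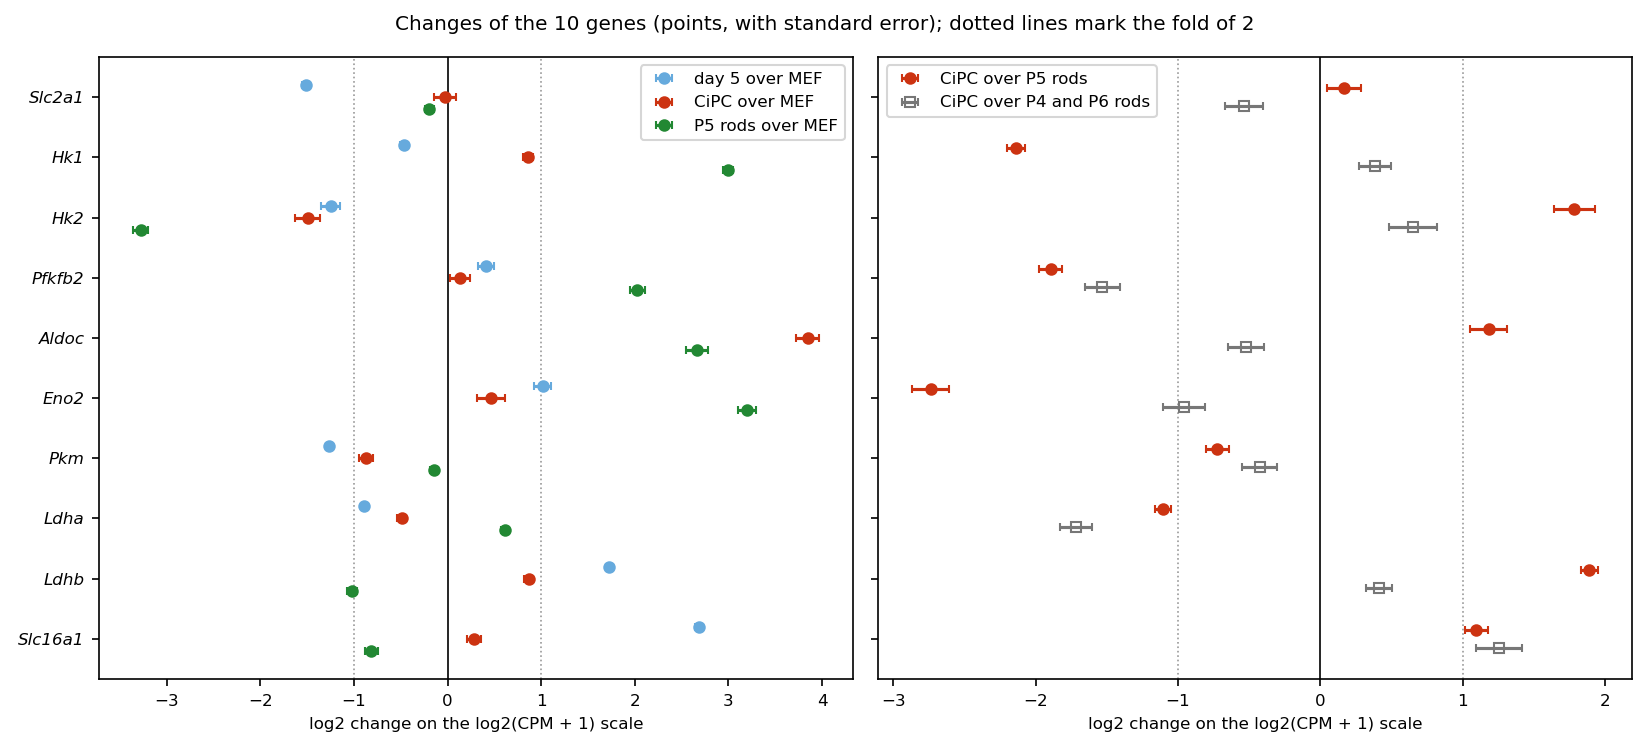
Change of each gene on the log2(CPM + 1) scale with its standard error, for day 5 cells, CiPC and P5 rods over MEF (left) and for CiPC over P5 rods (right, red) or over the mean of P4 and P6 rods (right, open grey squares). Dotted lines mark the fold of 2, and on the right the red and grey points of Hk1 and Aldoc lie on opposite sides of 0, at -2.14 and 0.38 and at 1.18 and -0.52.

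P5 rods were set against MEF as the frame for CiPC. Hk1 was at 609.6, 655 and 687 CPM in P5 rods, against 78.9, 80.1 and 83.1 in MEF, and Hk2 at 5.45, 4.87 and 5.02 against 55.2, 60.9 and 59.2 CPM. The hexokinases moved in opposite directions without overlap, by 2.99 ± 0.05 (adjusted p = 2.14e-11, limma) and -3.28 ± 0.08 (adjusted p = 1.48e-10, limma). With P4 and P6 rods in place of P5, added after the data were seen, Hk1 differed from MEF by only 0.47 and lost its call, while Hk2 differed by -2.15. Eno2 was higher by 3.20 ± 0.09, Aldoc by 2.66 ± 0.12 and Pfkfb2 by 2.02 ± 0.08. Aldoc lay below 1 CPM in every MEF library and passed the filter only through the P5 rods. Ldhb was lower by 1.02, just past the threshold, and fell short of it without P5 replicate 1, at -0.997, and with other scalings. With P4 and P6 rods in place of P5 its direction was reversed, at 0.45. Altogether 4 were higher and 2 lower of 10, where 55% of all tested genes were called. Pkm changed by -0.14 ± 0.04 as deposited and by 1.10 under quantile normalization. Ldha changed by 0.61 ± 0.04, and was called under quantile normalization (1.50), with equal column sums (1.07) and with P4 and P6 rods (1.22). Slc16a1 changed by -0.82 ± 0.07 and Slc2a1 by -0.19 ± 0.05.

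CiPC against P5 rods shares its samples with the comparisons above. Ldhb was at 123, 123 and 125 CPM in CiPC, against 31.4, 33.1 and 33.4 in P5 rods, and Hk2 at 17.5, 17.8 and 25.8 against 5.45, 4.87 and 5.02 CPM. CiPC were above P5 rods in every library for both, by 1.89 ± 0.06 (adjusted p = 1.53e-09, limma) and 1.78 ± 0.15 (adjusted p = 1.72e-06, limma). Aldoc was higher by 1.18 ± 0.13 and Slc16a1 by 1.10 ± 0.08. Both calls were lost with a pseudocount of 5 (0.93 and 0.91) and under quantile normalization (0.86 and 0.83), and that of Slc16a1 also with equal column sums (0.98). Eno2 was at 46.0, 34.3 and 30.8 CPM in CiPC, against 229.6, 254 and 265 in P5 rods, and Hk1 at 153, 149 and 139 against 609.6, 655 and 687 CPM, again without overlap. Eno2 was lower by 2.74, Hk1 by 2.14, Pfkfb2 by 1.89 and Ldha by 1.11 on the log2 scale, and Pkm was called under quantile normalization, at -1.24. In total 4 were higher and 4 lower of 10, where 43.3% of all tested genes were called. Set against P28 rods, the CiPC mean as deposited was 1.18% for Hk2, 3.40% for Pfkfb2, 4.41% for Hk1, 5.40% for Aldoc and 5.87% for Slc16a1. It was 9.20% for Eno2, 10.3% for Pkm, 17.4% for Ldha, 32.1% for Slc2a1 and 118% for Ldhb. These percentages compare different series and carry no test. Column sums were 819893 to 824208 in CiPC and 1928260 to 2277240 at P28, so equal column sums would raise every percentage.

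The P5 rods differed from reused rods of neighbouring age in the genes that the comparison with CiPC turns on. Hk1 was at 609.6, 655 and 687 CPM at P5, against 83.8 and 73.6 at P4 and 172, 134 and 181 at P6. Eno2 was at 229.6, 254 and 265 CPM at P5, against 52.9 and 69.0 at P4 and 83.3, 94.8 and 79.0 at P6. All P5 libraries lay above all libraries of both neighbouring ages, by 2.52 ± 0.11 for Hk1 (adjusted p = 5.93e-08, limma) and 1.78 ± 0.11 for Eno2 (adjusted p = 3.87e-07, limma). Aldoc changed by -1.71 ± 0.13, Ldhb by -1.48 ± 0.09 and Hk2 by -1.13 ± 0.14, so that 2 were higher and 3 lower, where 21.3% of all tested genes were called. Hk2 lost its call with a pseudocount of 5 (-0.79) and under quantile normalization (-0.90). Mueller glia markers summed to 219.9 to 243 CPM at P5, 978 to 1122 at P4 and 736 to 1201 at P6, and cell cycle markers to 21.1 to 21.9, 471 to 535 and 115 to 188 CPM. The part of these cells was not tested, and age and series cannot be told apart for P5. With P4 and P6 rods in place of P5, a comparison added after the data were seen, CiPC differed by 0.38 for Hk1 and -0.52 for Aldoc, which are reversed, and by -0.96, 0.65 and 0.41 for Eno2, Hk2 and Ldhb, which are under the fold of 2. Slc16a1 (1.26), Pfkfb2 (-1.53) and Ldha (-1.72) kept their direction and call under this swap, and 1 was higher and 2 lower.

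The balance within isoform pairs was followed as the log2 ratio of (CPM + 1) inside each library, where a scaling factor between libraries cancels but for the added 1. Only its change between groups is read, since the 2 genes of a pair differ in length. Hk1/Hk2 was 1.19 ± 0.10 at P2 (SD), 3.66 ± 0.38 at P6, 4.24 ± 0.42 at P10 and 0.95 ± 0.14 at P28. It was higher at P6 than at P2 in every library, P10 overlapped P6, and P28 lay below P10, with a change of -3.30 in P28 against P10 rods and no overlap (exact two-sided permutation p = 0.0286, the smallest that 4 against 4 allows). In CiPC the ratio was 2.81 ± 0.37, against 0.46 ± 0.06 in MEF, 6.74 ± 0.15 in P5 rods, 2.50 ± 0.14 in P4 rods and 2.68 ± 0.98 in P14 rods. The CiPC libraries overlapped those of P4 and P14 and lay below those of P5 and P6. Ldhb/Ldha was -3.39 ± 0.03 in MEF, -0.77 ± 0.02 in day 5 cells, -0.83 ± 0.04 in day 8 cells and -2.03 ± 0.08 in CiPC, so the ratio rose at day 5 and stayed above MEF in CiPC. It was -5.02 ± 0.04 in P5 rods and -4.78 ± 0.16 in P28 rods, and no rod library reached a library of the cultured cells.

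Slc16a1/Slc16a3, the balance between MCT1 and MCT4, was 0.48 ± 0.23 in MEF, 3.40 ± 0.15 in day 5 cells, 4.80 ± 0.25 in day 8 cells and 2.15 ± 0.26 in CiPC. In rods it was -0.54 ± 0.49 at P4, 2.07 ± 0.26 at P5, 0.01 ± 0.31 at P6, 3.28 ± 0.26 at P10 and 2.86 ± 0.21 at P28. The P5 rods stood apart from P4 and P6 without overlap and overlapped CiPC. Slc16a3 was low at P5, at 1.70 to 2.86 CPM, so the P5 ratio depends on the pseudocount. Its change against P4 and P6, 2.33, was 2.74 with a pseudocount of 0.1 and 1.47 with 5. Changes toward Slc16a1 were 2.92 at day 5 against MEF and 3.27 at P10 against P6. Pfkfb2/Pfkfb3 was -1.07 ± 0.11 in CiPC, 1.02 ± 0.52 at P2, 5.39 ± 0.20 at P10, 7.05 ± 0.31 at P28 and -1.32 ± 0.20 in MEF, so CiPC overlapped MEF and every rod library lay above both. Aldoc/Aldoa was -4.96 ± 0.17 in CiPC, -3.43 ± 0.41 in P28 rods and -8.93 ± 0.05 in MEF. Its change in CiPC against MEF, 3.97, was 5.09 with a pseudocount of 0.1 and 2.40 with 5, since Aldoc was near 0 in MEF. Eno2/Eno1 was -6.53 ± 0.16 in CiPC, against -5.50 ± 0.19 in MEF, a change of -1.03 that was -0.67 with Eno1b added to Eno1, and -1.75 ± 0.03 in P5 rods. With 3 libraries against 3, the exact permutation test cannot go below p = 0.1, and the adjusted p over the 54 ratio comparisons was 0.117 for each comparison without overlap.

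**Figure D4:**
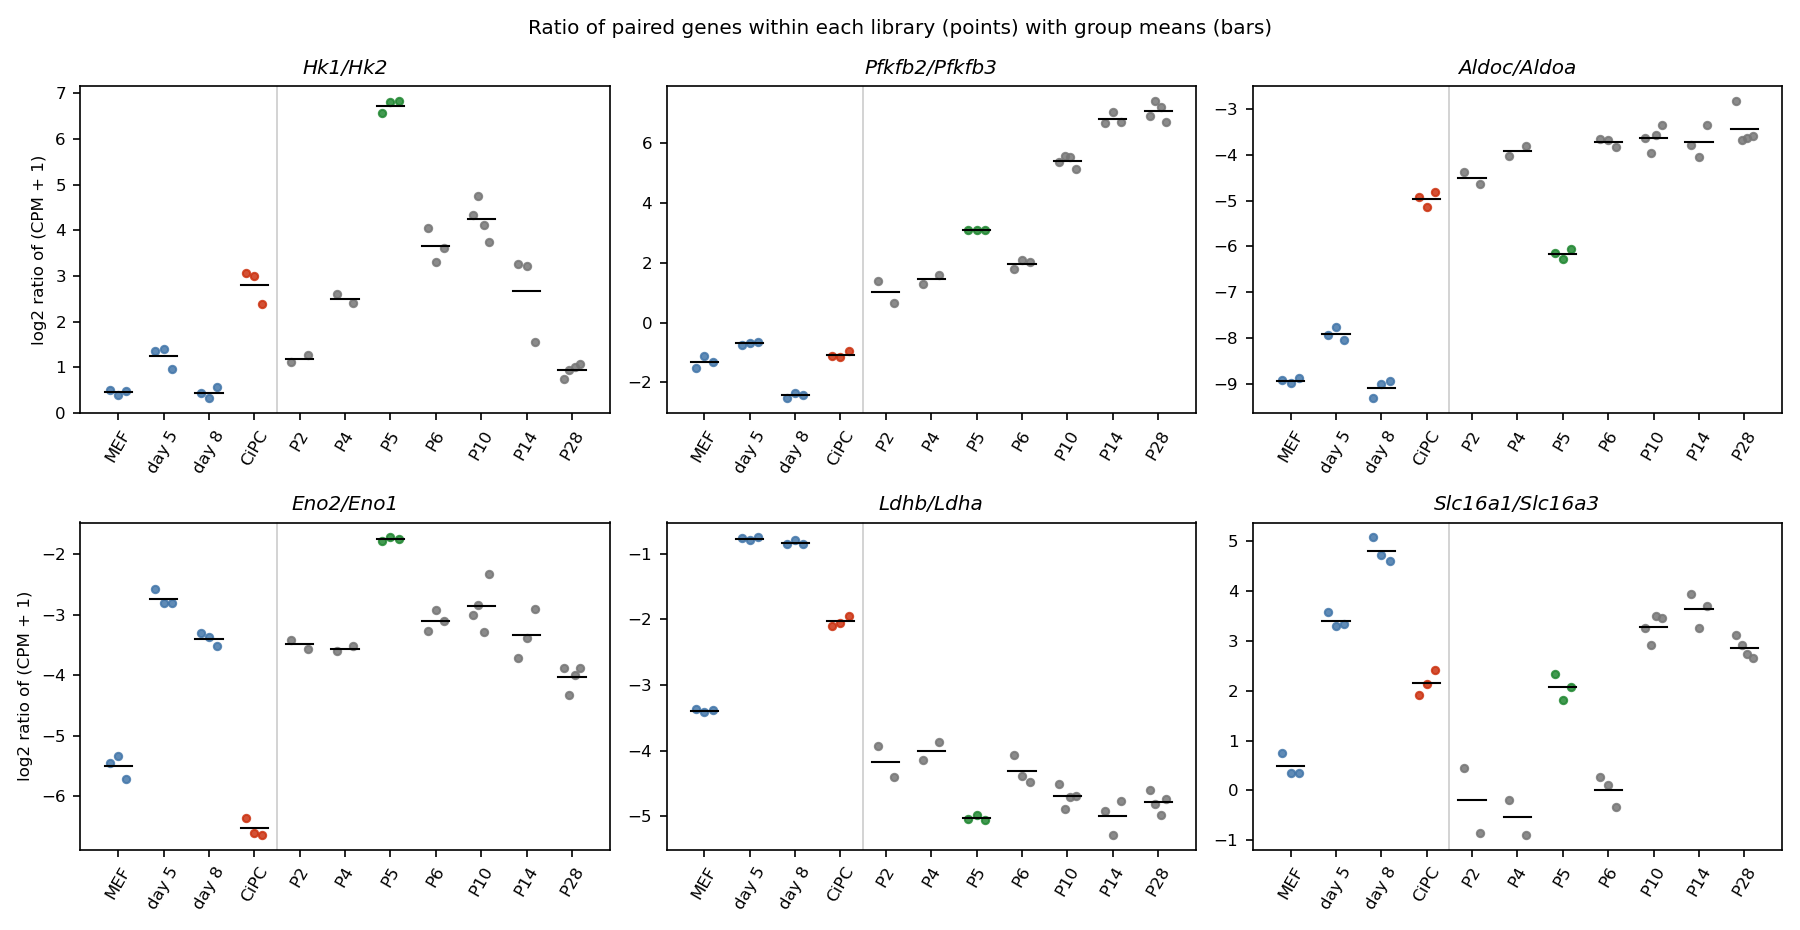
Log2 ratio of (CPM + 1) of isoform pairs and functional partners in each library (points) with the group mean (bars), coloured as in the plot of levels. Hk1/Hk2 peaks in P5 and P10 rods and falls to 0.95 at P28, and every cultured library of Ldhb/Ldha lies above every rod library.

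By Pearson correlation of log2(CPM + 1) over the 11 group means, among 11925 genes with a group mean of at least 10 CPM, the gene most like Hk2 was Pgam1 (r = 0.970), a later enzyme of the same pathway. The gene most like Slc2a1 was Nrf1 (r = 0.967), the one most like Aldoc was Copg2 (r = 0.983) and the one most like Eno2 was Psd (r = 0.984). For Ldha it was Ttc33 (r = 0.996), for Ldhb Clybl (r = 0.951), for Slc16a1 Acbd4 (r = 0.966), for Pfkfb2 Polg2 (r = 0.992) and for Pkm Wrb (r = 0.985). For Hk1 it was Glt28d2 (r = 0.989). These values describe 11 means, of which 7 are rods, and carry no test.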

How the data were processed

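The authors' tool was kallisto, according to the submitters' processing notes. Its version, the genome build, the scaling between libraries and the kit's strand were not given in the sources used here. The deposited table holds a signal per gene, which the authors call normalized CPM. Its values are not whole, so depth is unknown and no count test was made. Of 36 samples, 33 have a column, and 3 rod samples of P3 were not analysed here.

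The members and lists were chosen with earlier results of these data known. Groups came from the labels. Each comparison was fitted over its groups with limma 3.58.1 in R 4.3.3 on log2(CPM + 1) with a trended variance prior. Genes needed 1 CPM in at least 3 libraries (2 where the smallest group has 2), and p-values were adjusted by Benjamini-Hochberg over all tested genes. The fit was tested on simulated data. Ratios were compared by exact two-sided permutation tests. Beside the members, the text names at most the 4 most changed called genes of each list, the isoform partners, and for each member the gene most correlated with it. Of 15289 gene IDs, 15144 matched GENCODE M21, and promoters came from RefSeq. Alternatives covered the pseudocount, filter, scaling, variance prior, a replicate block, 1 fit over all groups and each library left out. Replicate numbers were not treated as pairs. Same-numbered deviations correlated between -0.443 and 0.353, and no comparison had all above 0.1. With so few libraries per group, this cannot show that samples were unpaired.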

Additional observations from a re-analysis of the deposited data

Results flagged for a closer look

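Slc2a1 was at 197 CPM in P10 replicate 2, while the other P10 libraries lay between 146 and 151 CPM, so its gap took 0.888 of the range of the group. Ldhb was at 56.3 CPM in P10 replicate 4, while the others lay between 92.9 and 99.0 CPM, a gap share of 0.856. Among 28 sets of 4 or more libraries examined 2 stood out, and chance gives about 1 in 20. P10 replicate 4 is also the library with 3.87% mitochondrial CPM. No explanation was tested.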

How the results depend on the processing

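Among changes of single members, 747 of those with a library left out kept direction and call, 8 lost and 3 gained a call; under other settings 994 kept both, 29 lost and 10 gained a call, and 7 reversed. Of ratio changes, 39 moved by over 1 SD and 126 did not under other settings, mostly with the pseudocount. With equal column sums, the slope was -0.53 for Ldha and -1.38 for Ldhb, with 1 member lower, 723 genes higher and 8868 lower. The same scaling gave 3 members higher in CiPC against MEF, 1 lower in CiPC against day 8, 1 lower in P5 against MEF, 452 genes higher and 2446 lower in P10 against P6, and 3 members and 162 genes higher and 5535 lower in P28 against P10. Quantile normalization gave a slope of -1.81 for Ldha with 1 member lower, 3 members higher in CiPC against MEF, 2 higher in CiPC against P5, 1.10 for Pkm and 1 member lower in P5 against MEF, and 3 members higher and 1374 genes lower in P28 against P10. Median-of-ratios scaling left 1 member lower in P5 against MEF. A pseudocount of 5 gave 1504 genes higher in CiPC and 1185 at day 5 against MEF, 282 higher and 163 lower at day 8 against day 5, 565 lower in P10 against P6, 1194 lower in P28 against P10, 673 higher and 995 lower in P5 against P4 and P6, 1 member lower in P5 against MEF and 2 higher in CiPC against P5. A pseudocount of 0.1 gave 601 genes lower at day 8, a minimum of 5 CPM 1696 lower in P28 against P10, and a slope without P28 2788 lower.

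With P4 and P6 in place of P5, added after the data were seen, CiPC differed by 0.38 for Hk1 and -0.52 for Aldoc, with 1 member higher and 2 lower, and rods against MEF by 0.45 for Ldhb, 0.47 for Hk1 (call lost) and 1.22 for Ldha (call gained), with 1 lower. P6 in place of P10, also added, gave 2381 genes higher in P28. Leaving out 1 library moved the members lower in P5 against MEF between 1 and 2. Replicate numbers were not treated as pairs. As an alternative, a replicate block changed only the call of Pkm in P10 against P6 among members (1.20, adjusted p = 0.00419, limma). The cause of these shifts was not tested. Unknown depth limits what low values show.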

Other observations

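Beside the pathway from glucose to lactate, genes of neighbouring routes moved in day 8 cells. Gpd1, the cytosolic glycerol 3-phosphate dehydrogenase, averaged 1.11 ± 0.133 (SD, n = 3) in MEF, 7.55 ± 0.611 (SD, n = 3) in day 5 cells, 363 ± 46.2 (SD, n = 3) in day 8 cells and 21.8 ± 3.89 (SD, n = 3) CPM in CiPC. It was higher by 5.41 ± 0.10 at day 8 against day 5 (adjusted p = 5.94e-10, limma) and lower by 4.00 in CiPC against day 8. Pck1, the cytosolic enzyme of gluconeogenesis that makes phosphoenolpyruvate, was at 53.6 ± 1.60 (SD, n = 3) CPM at day 8 and 0.448 ± 0.149 (SD, n = 3) at day 5, a change of 5.24 ± 0.11. Pck1 passed the filter only through the day 8 libraries. Ckb, the creatine kinase of brain, was at 1211 ± 407 (SD, n = 3) CPM in CiPC, 1279 ± 427 (SD, n = 4) in P28 rods and 175 ± 25.5 (SD, n = 3) in MEF, and CiPC were higher than MEF by 2.74 ± 0.22 (adjusted p = 4.35e-06, limma). Of the glycerol and malate shuttle genes, 6 of 10 rose with rod age and 2 fell, where 54% of all tested genes were called. Got1, a transaminase of the malate-aspartate shuttle, was at 708 ± 151 (SD, n = 4) CPM at P28 and 36.7 ± 1.63 (SD, n = 2) at P2. Its fitted change was 4.56 ± 0.33.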
